A study of Mus musculus with 6 samples.

Results

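Autophagy is the process by which a cell wraps part of its own cytoplasm in a membrane, the autophagosome, and passes it to the lysosome for digestion. A kinase complex built around Ulk1 starts the process, and a lipid kinase complex with Vps34 and Beclin 1 then marks the membrane on which the autophagosome grows. The ubiquitin-like proteins of the LC3 and GABARAP families are coupled to that membrane, where they bind cargo receptors such as p62, and a SNARE protein later mediates fusion with the lysosome. In skeletal muscle, autophagy is known for the upkeep of fiber mass and for its part in muscle stem cell activation.

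The transcripts of 38 genes of this machinery were followed, out of 47069 genes in the count table. They were selected by gene symbol: 5 genes of initiation, 6 of the lipid kinase complex, 6 of membrane supply, 9 of conjugation, 5 of the LC3 family, 5 cargo receptors and 2 genes of fusion. The samples were cultured myoblasts grown from muscle stem cells of mdx mice, which lack dystrophin and model Duchenne muscular dystrophy. Per the sample records the cells were maintained in medium with serum and FGF2. They received 10 μM PSB-KD107, a synthetic agonist of the receptor Gpr18, or its vehicle. The methods give an overnight treatment and the sample records 2 days. The mice of the study were males on a C57BL/10 background, 10 weeks of age, and the donors of the myoblasts are not described separately. The treated group carries the treatment label PSB-KD-1 in the sample records and the vehicle group is labelled Control. There were 3 libraries per group, numbered 1, 2 and 4 in the table, and the methods state that the cells came from 3 different mice. The sort removed Sca-1, CD45, CD31 and CD11b positive cells, and the cells were then expanded in culture.

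Library totals lay between 30917613 and 48756794 counts, so that 3 counts corresponded to at most 0.0962 CPM (counts relative to library size, scaled here with the TMM method). Each of the 38 genes passed the filter on low counts, with at least 207 counts in every library. Satellite and myoblast markers summed to 7456 to 7818 CPM with vehicle and 7141 to 7317 CPM with PSB-KD107, and of the 9 markers Msc alone stayed under 1 CPM in every library. Pax7, the marker of the stem cell state, measured 68.7, 49.8 and 59.97 CPM with vehicle and 34.0, 26.7 and 35.1 CPM with PSB-KD107, without overlap, and was the 1 marker of this list that DESeq2 called lower. Markers of differentiating muscle were abundant in all libraries, and their sum was lower with PSB-KD107: the 10 genes summed to 39202 to 44568 CPM with vehicle and to 30748 to 35401 CPM with the agonist, and 5 of them were lower at an unadjusted p under 0.05 in edgeR. In direction 3 were higher, and Ckm and Acta1 were above every vehicle library in PSB-KD107 library 4, at 817 and 8885 CPM. Fibroblast, endothelial and immune markers summed to at most 9.89, 1.402 and 6.55 CPM in any library, and Lum, Emcn and Adgre1 had no count. The share of counts on mitochondrial genes was 0.603% to 0.779% with vehicle and 0.514% to 0.966% with PSB-KD107. The part of these differences in the results below was not tested. In bulk RNA, fewer cells of a type and less RNA per cell cannot be told apart.

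To determine how PSB-KD107 treatment affected autophagy genes, the groups were compared with edgeR's quasi-likelihood test across all 14165 genes that passed the filter. No gene passed adjustment in edgeR, and 6 of the 38 had an unadjusted p under 0.05. Among these, Sqstm1, which encodes the receptor p62, was 2.07-fold higher in mean CPM, with higher levels also of the receptor Optn, the LC3 family members Gabarap and Map1lc3b, and Uvrag of the lipid kinase complex. Map1lc3a was lower. The core of the pathway, from the Ulk1 complex to the conjugation enzymes, had no other gene at an unadjusted p under 0.05.

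With adjustment over all genes, edgeR called 0% of them at 0.05, and none of the 38, whose smallest adjusted p was 0.184. At an unadjusted p under 0.05, 5 of the 38 were higher and 1 was lower, where 6.47% of all genes were higher and 2.93% lower. By DESeq2, the package named in the study's methods, 3 of the 38 rose at an adjusted p under 0.05 (Sqstm1, Uvrag and Gabarap) and none fell, where 2.25% of all genes with an adjusted p rose and 0.716% fell. The groups did not overlap for 9 genes that were higher with PSB-KD107 and for 3 that were lower, against 9.2% and 6.59% of all genes. With 3 libraries against 3, the exact permutation test of such a gene gives its smallest possible two-sided p of 0.1.

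The middle of the 38 log2 fold changes was close to that of the transcriptome. Their median was 0.06, with 23 genes higher and 15 lower in direction, and the median of all genes was -0.00074. The 95% interval of the fold change lay within 1.5-fold in either direction for 23 of the 38 genes, against 34.3% of all genes. The 38 genes were also better covered than most, with a median over genes of 62.7 CPM against 21.1 CPM. By step, the median log2 fold change was -0.01 for initiation, 0.02 for the lipid kinase complex, 0.14 for membrane supply, 0.01 for conjugation, 0.36 for the LC3 family, 0.08 for the cargo receptors and 0.10 for fusion. The steps hold few genes and differences between them were not tested. Single libraries moved these medians: without PSB-KD107 library 2 that of the LC3 family was 0.15, without vehicle library 1 that of the cargo receptors was 0.05, and without PSB-KD107 library 1 that of fusion was -0.02.

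**Figure D1:**
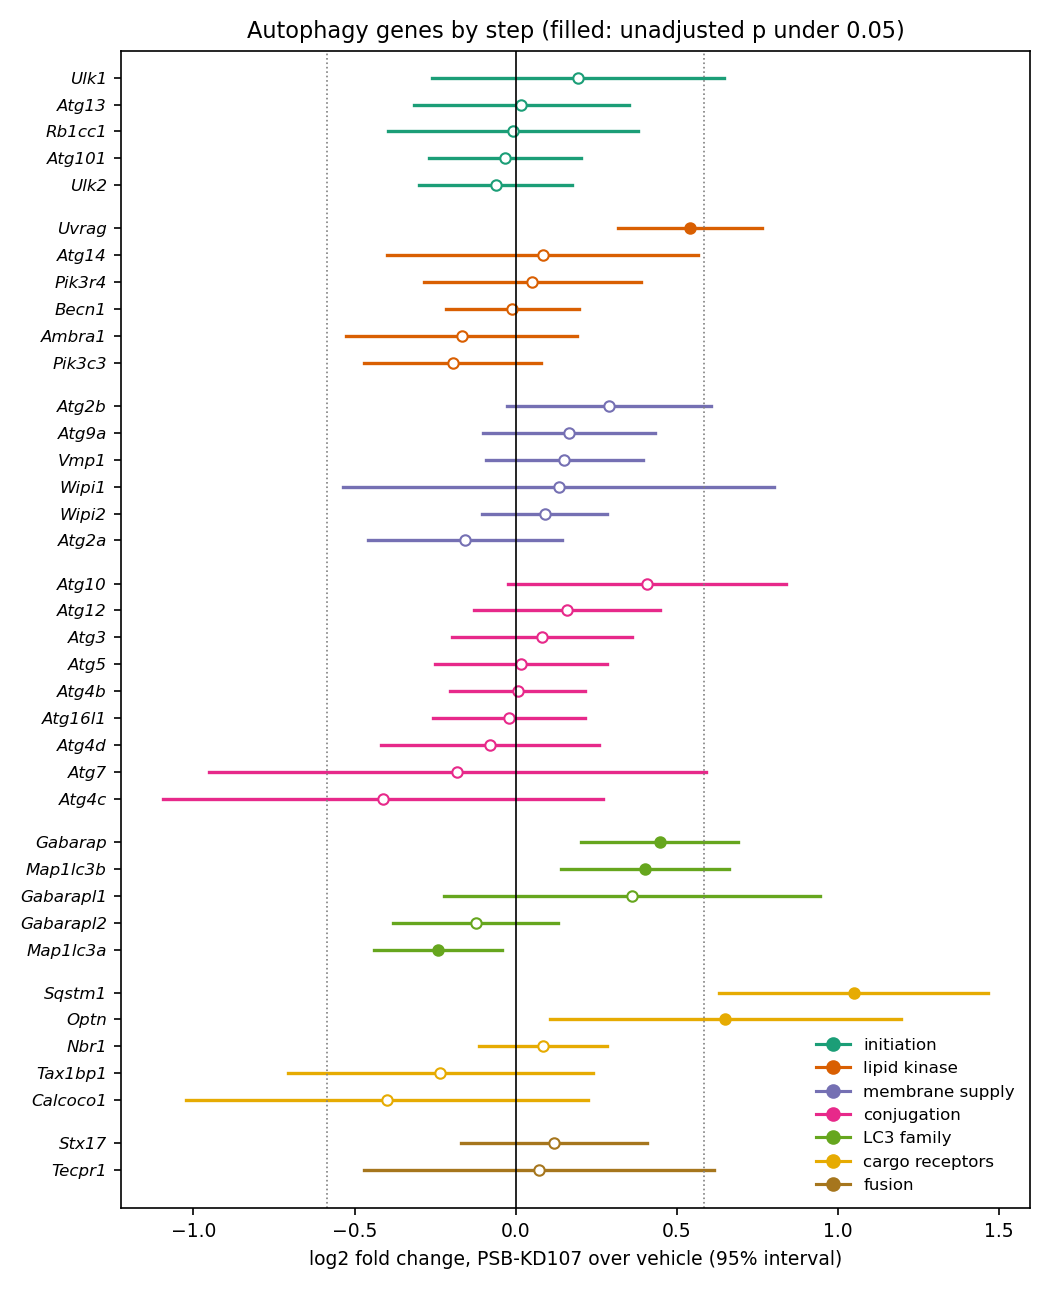
Log2 fold change of PSB-KD107 over vehicle (x axis) for each of the 38 autophagy genes (y axis), colored by step, with 95% intervals from edgeR; filled points have an unadjusted p under 0.05, and dotted lines mark 1.5-fold. Filled points occur in the lipid kinase complex, the LC3 family and the cargo receptors, from -0.24 for Map1lc3a to 1.05 for Sqstm1.

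Promoter sequence was taken from RefSeq (GRCm38.p6, from 250 bases before to 50 bases after each start). It covered 32 of the 38 genes, in 37 windows. The remaining genes were not searched, and whether they hold these motifs is not known. Sqstm1 and Uvrag are shown because they had the smallest p-values of the 38. Atg3 alone of the genes searched holds the core of the CLEAR element, the site read by the lysosomal regulator TFEB. Map1lc3b is shown because it alone of the 5 genes higher at an unadjusted p under 0.05 held any motif searched. The first 3 end before the earliest annotated start, the last is the surroundings of the match, and matches are in capitals. Positions are Sqstm1 at chr11:50210828-50211070 on the minus strand, Uvrag at chr7:99141145-99141394 on the minus strand, Atg3 at chr16:45158579-45158784 on the plus strand and Map1lc3b at chr8:121590432-121590461 on the plus strand.
Sqstm1: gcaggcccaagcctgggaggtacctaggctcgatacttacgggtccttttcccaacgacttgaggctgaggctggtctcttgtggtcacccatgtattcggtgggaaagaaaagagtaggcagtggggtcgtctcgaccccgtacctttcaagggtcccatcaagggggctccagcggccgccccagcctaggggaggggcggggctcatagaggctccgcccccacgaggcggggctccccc
Uvrag: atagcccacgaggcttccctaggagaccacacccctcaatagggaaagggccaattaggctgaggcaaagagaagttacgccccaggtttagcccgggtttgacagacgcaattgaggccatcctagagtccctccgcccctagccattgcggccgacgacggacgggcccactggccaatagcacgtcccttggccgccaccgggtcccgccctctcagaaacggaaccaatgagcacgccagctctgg
Atg3: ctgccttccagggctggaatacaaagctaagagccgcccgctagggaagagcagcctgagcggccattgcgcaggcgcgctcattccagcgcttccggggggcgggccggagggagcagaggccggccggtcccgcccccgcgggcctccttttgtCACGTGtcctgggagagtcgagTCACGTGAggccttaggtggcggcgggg
Map1lc3b: gcgagtcaccTGACTCGGCtgcggactgag

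Both strands of the 300-base windows were searched. The CLEAR core, TCACGTGA, was in 1 of the 37 windows and in 0.974% of all 32851. The E-box CACGTG, which the CLEAR core contains, was in 4 windows, those of Atg14, Atg3, Atg5 and Atg7, and in 7.15% of all. A short form of the antioxidant response element read by Nrf2, TGACNNNGC, was in 7 windows of 5 genes (Atg13, Map1lc3b, Tax1bp1, Ulk2 and Vmp1) and in 12.4% of all. The amino acid response element TGATGNAA was in none of the 37 windows and in 3.97% of all. In Map1lc3b the match TGACTCGGC began 4 bases after the RefSeq start, inside the gene as GENCODE annotates it. Sqstm1, Uvrag, Gabarap and Optn held none of these motifs in their windows, and Map1lc3a was not matched to the table.

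Initiation is carried out by the kinases Ulk1 and Ulk2 with Atg13, Atg101 and the scaffold Rb1cc1 (FIP200). Ulk1 measured 94.7, 88.8 and 88.6 CPM in vehicle libraries 1, 2 and 4, and 86.4, 89.8 and 135 CPM in PSB-KD107 libraries 1, 2 and 4. The groups overlapped, and PSB-KD107 library 4 alone stood above the rest. The log2 fold change of Ulk1 was 0.19 ± 0.19 (SE, adjusted p = 0.785, edgeR), and -0.04 without that library. The log2 fold changes of the other 4 genes ran from -0.06 (Ulk2) to 0.02 (Atg13). The 95% interval was within 1.5-fold for 4 of the 5 genes, Ulk1 being the exception with an upper bound of 0.65.

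The lipid kinase complex makes phosphatidylinositol 3-phosphate, with Pik3c3 (Vps34) as catalytic and Pik3r4 (Vps15) and Becn1 as regulatory subunits. Atg14 directs the complex to autophagosome formation, and Uvrag takes its place in a complex that acts on endosomes and later autophagosomes. Uvrag (chr7:98885021-99141141, GRCm38) measured 39.0, 40.6 and 36.8 CPM with vehicle and 57.2, 53.9 and 58.4 CPM with PSB-KD107. Every treated library was above every vehicle library, and the spread within each group was small against the gap. On the log2 scale the difference was 0.54 ± 0.09 (SE, unadjusted p = 9.6e-04, adjusted p = 0.184 in edgeR), and DESeq2 called the rise at an adjusted p of 9.6e-04. Of the other 5 genes, none passed an unadjusted p of 0.05, with log2 fold changes from -0.20 (Pik3c3) to 0.08 (Atg14). Atg14, the counterpart of Uvrag, measured 16.1, 12.7 and 11.8 CPM with vehicle and 16.6, 11.8 and 14.7 CPM with PSB-KD107, and its groups overlapped. The groups of Pik3c3 did not overlap, with 27.9, 30.2 and 30.7 CPM with vehicle and 27.0, 27.1 and 23.5 CPM with PSB-KD107, but the gap was narrow (log2 fold change -0.20 ± 0.11 SE, edgeR adjusted p = 0.655). Becn1, encoding Beclin 1, was nearly level between the groups, at 103 ± 4.18 CPM and 103 ± 5.13 CPM (SD, n = 3). Cntd1 on the opposite strand covers 43.9% of the exon bases of Becn1, but had 38 counts in all libraries against 23170.

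Membrane for the growing autophagosome depends on the lipid transfer proteins Atg2a and Atg2b, the scramblases Atg9a and Vmp1, and the Wipi proteins, which bind the lipid that Vps34 makes. Atg2b measured 68.8, 73.9 and 75.6 CPM with vehicle and 82.1, 79.9 and 105 CPM with PSB-KD107. Its groups did not overlap, and library 4 was the highest of the treated libraries. The log2 fold change was 0.29 ± 0.13 (SE, adjusted p = 0.584, edgeR), and 0.15 without PSB-KD107 library 4. Wipi2, which recruits Atg16l1, was the other gene whose groups lay apart, by a narrow gap: 71.7 to 74.2 CPM with vehicle and 75.6 to 80.7 CPM with PSB-KD107. Wipi1 varied in both groups, with 77.8, 58.03 and 51.5 CPM with vehicle and 66.6, 47.2 and 91.7 CPM with PSB-KD107, and its groups overlapped. Atg9a had a log2 fold change of 0.17, and Gm29253 on its own strand shares 31.8% of its exon bases, with 26 counts in all libraries against 14001. Direction was higher for 5 of the 6 genes and lower for Atg2a, and none passed an unadjusted p of 0.05.

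Conjugation couples LC3 to lipid through the E1-like enzyme Atg7, the E2-like enzymes Atg3 and Atg10, the conjugate of Atg12 with Atg5, Atg16l1, and the Atg4 proteases. None of the 9 genes passed an unadjusted p of 0.05. Atg10, the least abundant of the 38 genes, had the smallest p, with 8.598, 7.96 and 6.42 CPM with vehicle and 9.54, 10.1 and 10.8 CPM with PSB-KD107. Its groups did not overlap, and the log2 fold change was 0.41 ± 0.18 (SE, adjusted p = 0.559, edgeR). Atg3, Atg5, Atg12 and Atg16l1 had log2 fold changes of 0.08, 0.02, 0.16 and -0.02, each with an interval within 1.5-fold. Atg4b, the main LC3 protease, was level, at 49.4 to 51.5 CPM with vehicle and 48.1 to 52.1 CPM with PSB-KD107. In contrast, Atg7 was far below the other libraries in PSB-KD107 library 4 alone, at 10.8 CPM against 25.8 and 21.9 CPM in libraries 1 and 2 and 20.7 to 22.96 CPM with vehicle. The interval of Atg7 was correspondingly wide, from -0.95 to 0.59. Atg4c had the lowest log2 fold change of the 38 genes, -0.41 ± 0.28 (SE, adjusted p = 0.701, edgeR), with overlapping groups. Atg4d shares 19.3% of its exon bases with Kri1 on the opposite strand, and whether the counting used strand is not given in the sources used here.

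The LC3 family held the most genes at an unadjusted p under 0.05, 3 of 5, in opposite directions. Of all genes, 6.47% were higher and 2.93% lower at that threshold, and differences between steps were not tested. Gabarap (chr11:69991143-69994951, GRCm38) measured 175, 166 and 166 CPM with vehicle and 243, 242 and 207 CPM with PSB-KD107. Every treated library was above every vehicle library, and library 4 was the lowest of the 3. The log2 fold change was 0.45 ± 0.10 (SE, unadjusted p = 0.0040, adjusted p = 0.255, edgeR), and DESeq2 called the rise at an adjusted p of 0.0289. That call was lost when vehicle library 2 or 4, or PSB-KD107 library 1 or 2, was left out (DESeq2 adjusted p = 0.311, 0.294, 0.132 and 0.0978).

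Map1lc3b, which encodes LC3B, the form most often used to mark autophagosomes, lies at chr8:121590361-121598760. It measured 111, 95.5 and 91.2 CPM with vehicle and 139, 126 and 129 CPM with PSB-KD107. The groups did not overlap, and vehicle library 1 was the highest of its group. This gave a log2 fold change of 0.40 ± 0.11 (SE, unadjusted p = 0.0090, adjusted p = 0.335, edgeR), not called by DESeq2 (adjusted p = 0.136).

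The paralog Map1lc3a, encoding LC3A, differed in the other direction. It measured 113, 117 and 107 CPM with vehicle and 96.7, 96.8 and 91.6 CPM with PSB-KD107, and the groups did not overlap. The treated libraries were close to each other, and the difference was small, with a log2 fold change of -0.24 ± 0.08 (SE, unadjusted p = 0.025, adjusted p = 0.445, edgeR). The unadjusted p was 0.097 without vehicle library 2 and 0.051 without PSB-KD107 library 2.

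Gabarapl1 measured 61.4, 64.0 and 60.8 CPM with vehicle and 86.7, 101 and 51.8 CPM with PSB-KD107. PSB-KD107 libraries 1 and 2 stood above all vehicle libraries and library 4 below them. Over all libraries the log2 fold change was 0.36 ± 0.24 (SE, adjusted p = 0.693, edgeR), and without library 4 it was 0.59 ± 0.10 (SE, unadjusted p = 0.0017, adjusted p = 0.163). Without PSB-KD107 library 2 it was 0.15. An opposite-strand transcript, 1700101I11Rik, covers 28.3% of its exon bases with 115 counts in all libraries, against 15991 for Gabarapl1. Gabarapl2 (GATE-16) measured 47.2, 50.5 and 47.2 CPM with vehicle and 46.0, 47.1 and 39.8 CPM with PSB-KD107. Its groups were apart by a very narrow margin, and its log2 fold change was -0.12 ± 0.10 (SE, adjusted p = 0.754, edgeR).

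The make-up of the family's counts differed between the groups. The 5 genes together took 508, 493 and 472 CPM with vehicle and 611, 613 and 519 CPM with PSB-KD107. Gabarap made up 33.7% to 35.1% of these counts with vehicle and 39.6% to 39.8% with PSB-KD107, whereas the share of Map1lc3a was 22.2% to 23.7% and 15.8% to 17.6%, and that of Gabarapl2 9.29% to 10.2% and 7.54% to 7.68%. For these 3 genes the shares of the groups did not overlap. The ratio of Map1lc3b to Map1lc3a CPM was 0.987, 0.816 and 0.851 with vehicle and 1.43, 1.30 and 1.41 with PSB-KD107, also without overlap. A share shows unequal change within the family and does not say which gene moved. Per kilobase of exon the order differs, since the annotated exons of Map1lc3b span 7517 bases and those of Map1lc3a 1181. Mean vehicle FPKM (CPM per kilobase of exon) was 95.1 for Map1lc3a, 91.7 for Gabarap, 30.8 for Gabarapl1, 20.8 for Gabarapl2 and 13.2 for Map1lc3b. These lengths join every annotated exon of a gene, and for Map1lc3b the joined exons cover most of the gene. Which transcripts the cells made was not examined, so the low place of Map1lc3b depends on this length.

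**Figure D2:**
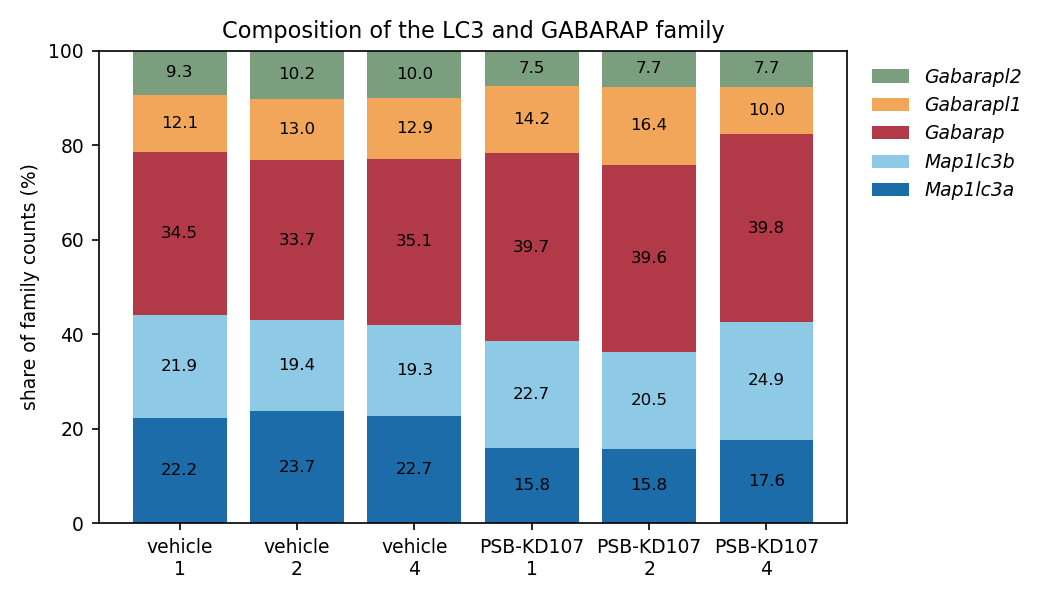
Share of the summed LC3 and GABARAP family counts (y axis, percent) taken by each of 5 genes in each library (x axis). The Gabarap band is at least 39.6% in the PSB-KD107 libraries and at most 35.1% with vehicle, and the Map1lc3a band is at most 17.6% and at least 22.2%.

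Cargo receptors bind ubiquitinated or other cargo and LC3 at once. Sqstm1 (p62; chr11:50199366-50210827, GRCm38) was the most abundant of the 38 genes per length, at 124 ± 10.6 FPKM with vehicle (SD, n = 3), and had the highest fold change and the smallest p. It measured 374, 438 and 433 CPM with vehicle and 1021, 871 and 685 CPM with PSB-KD107. Each treated library was well above the highest vehicle library, with library 1 the highest and library 4 the lowest. The log2 fold change was 1.05 ± 0.17 (SE, 95% interval 0.63 to 1.47, unadjusted p = 8.0e-04, adjusted p = 0.184, edgeR), and DESeq2 called the rise at an adjusted p of 7.9e-05. Leaving out each library in turn gave log2 fold changes between 0.89 and 1.19, and DESeq2 called Sqstm1 and Uvrag each time. Sqstm1 was also the only one of the 38 genes with a change over 2-fold, which 7.28% of all genes had. Mrnip on the opposite strand shares 17.3% of the exon bases of Sqstm1, with 839 counts in all libraries against 147357.

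Optn encodes optineurin, a receptor for damaged mitochondria and bacteria. It measured 20.1, 20.9 and 18.2 CPM with vehicle and 36.3, 35.4 and 21.3 CPM with PSB-KD107. PSB-KD107 libraries 1 and 2 stood apart, whereas library 4 was only just above the highest vehicle library. For Optn the log2 fold change was 0.65 ± 0.22 (SE, unadjusted p = 0.026, adjusted p = 0.452, edgeR), not called by DESeq2 (adjusted p = 0.219). Without PSB-KD107 library 4 it was 0.86 ± 0.10 (SE, unadjusted p = 4.2e-04, edgeR). Without any 1 of the other 5 libraries, the unadjusted p was between 0.057 and 0.088.

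The other 3 receptors did not pass an unadjusted p of 0.05. Nbr1, which acts together with p62, measured 212, 230 and 222 CPM with vehicle and 234, 233 and 237 CPM with PSB-KD107. Its groups were apart by a narrow gap, and the log2 fold change was 0.08 ± 0.08 (SE, adjusted p = 0.786, edgeR). The ratio of Sqstm1 to Nbr1 CPM was accordingly 1.77, 1.90 and 1.96 with vehicle and 4.37, 3.74 and 2.90 with PSB-KD107, without overlap.

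Calcoco1, an ER-phagy receptor, measured 216, 312 and 340 CPM with vehicle and 179, 292 and 187 CPM with PSB-KD107. The groups overlapped, with vehicle library 1 and PSB-KD107 libraries 1 and 4 low, and the log2 fold change was -0.40 ± 0.26 (SE, adjusted p = 0.684, edgeR). It was -0.67 without PSB-KD107 library 2 (unadjusted p = 0.026 in edgeR) and -0.27 without vehicle library 4. Myod1 was low in the same 3 libraries, at 515, 398 and 522 CPM against 764 to 1060 CPM in the others. So was Cdh15, at 637, 599 and 571 CPM against 1183 to 1372 CPM. No other of the 9 myoblast markers was low in all 3. Des was highest there, at 3650, 3929 and 3595 CPM against 2783 to 2995 CPM. The part of these markers in the values of Calcoco1 was not tested. Tax1bp1, which carries ubiquitinated aggregates, measured 317, 375 and 387 CPM with vehicle and 325, 364 and 227 CPM with PSB-KD107. The groups overlapped and PSB-KD107 library 4 was the lowest, with a log2 fold change of -0.23 ± 0.19 (SE, adjusted p = 0.752, edgeR) that was -0.06 without that library.

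**Figure D3:**
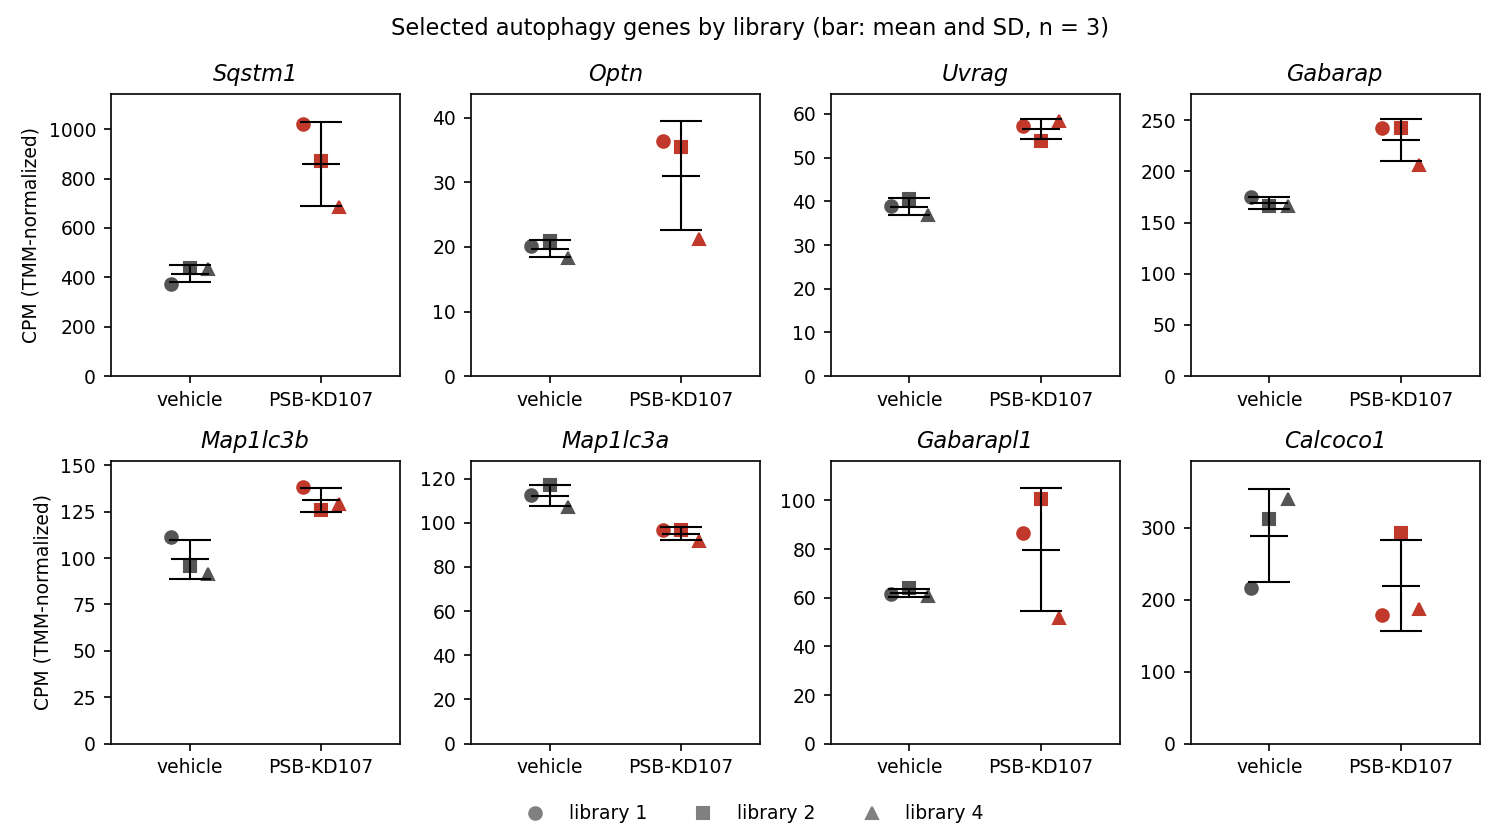
CPM (y axis, TMM-normalized, from 0) of 8 autophagy genes in vehicle and PSB-KD107 libraries (x axis); symbols mark the library number and bars the mean and SD (n = 3). Sqstm1, Optn, Uvrag, Gabarap and Map1lc3b were above all vehicle libraries in every treated library and Map1lc3a below, while Gabarapl1 and Calcoco1 overlapped.

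Fusion with the lysosome was represented by Stx17, the SNARE of the autophagosome, and the tethering factor Tecpr1. Stx17 measured 39.9, 45.3 and 45.7 CPM with vehicle and 42.2, 51.9 and 48.01 CPM with PSB-KD107. The groups overlapped, and the log2 fold change was 0.12 ± 0.12 (SE, adjusted p = 0.789, edgeR). Tecpr1 spread widely among treated libraries, at 97.3, 67.7 and 52.8 CPM, around 66.0 to 72.3 CPM with vehicle, and its log2 fold change was 0.07 ± 0.22 (SE, adjusted p = 0.935, edgeR).

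Some libraries stood apart from their group. Vehicle library 1 was the one farthest from the median of its group for 26 of the 38 genes (68.4%), close to the 66.6% of all genes tested. Among treated libraries, PSB-KD107 library 4 was the farthest for 21 of the 38 genes (55.3%), compared with 40.6% of all genes. It gave the lowest value of all 6 libraries for 14 of the 38 genes and the highest for 11. In the LC3 family, the median log2 difference from the vehicle mean was 0.48 and 0.35 in PSB-KD107 libraries 1 and 2 and -0.26 in library 4. Map1lc3a and Gabarapl2 lay below the vehicle mean in every PSB-KD107 library, and Gabarapl1 in library 4 alone. For membrane supply the median was 0.11, 0.08 and 0.27 in PSB-KD107 libraries 1, 2 and 4, and for the cargo receptors 0.08, 0.08 and 0.10. In vehicle libraries 1, 2 and 4 membrane supply stood at 0.0076, 0.0017 and -0.0093. The cargo receptors stood at -0.15, 0.08 and 0.07 there, so vehicle libraries 2 and 4 were close to the treated ones. Without library 4, an unadjusted p under 0.05 was reached by 6 of the 38 genes upward and 1 downward in edgeR, against 6.92% and 3.65% of all genes in that setting. DESeq2 then called 5, all higher (3.38% of all genes): Sqstm1, Uvrag, Gabarap, Optn and Gabarapl1. DESeq2 called 4 without vehicle library 1, where 3.32% of all genes rose. It called 2 when any of the other 4 libraries was left out, where 0.902% to 3.48% of all genes rose.

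**Figure D4:**
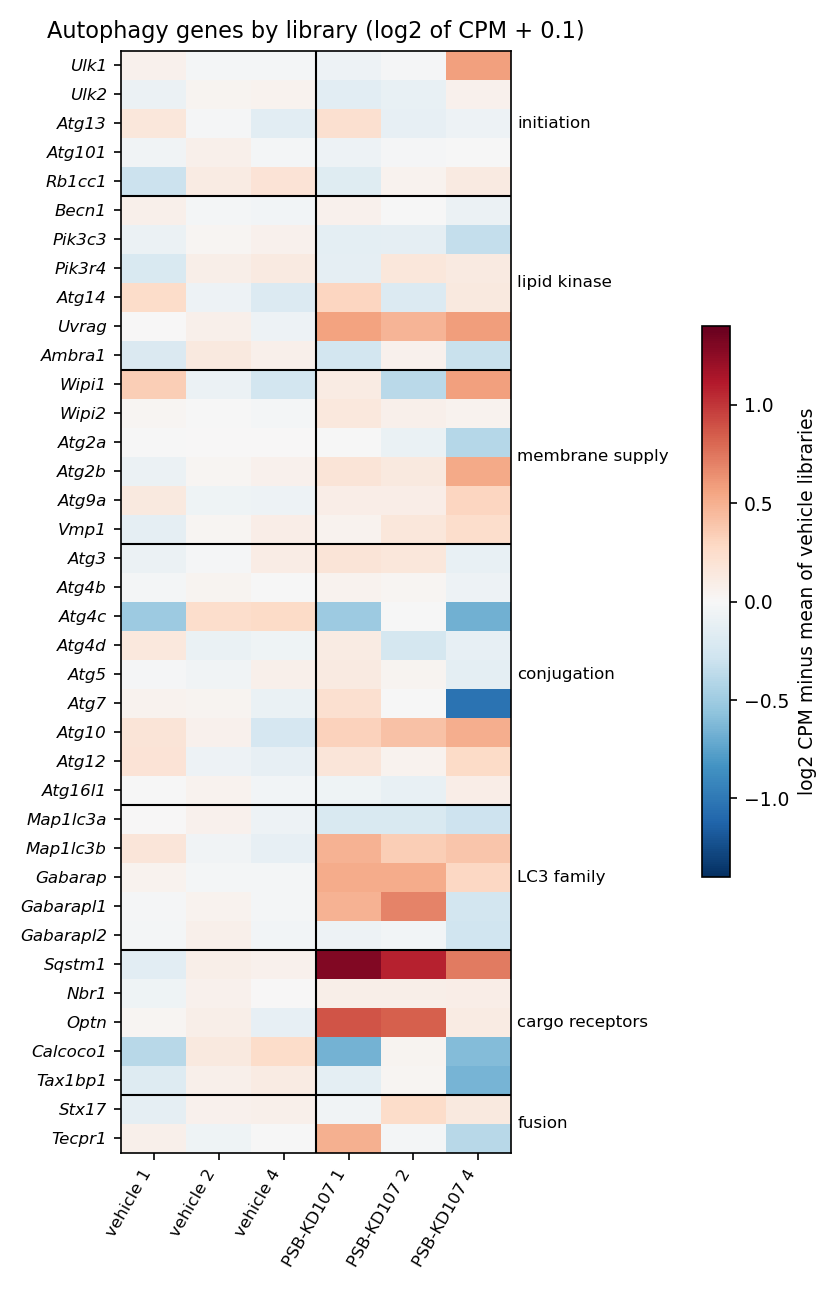
Difference in log2(CPM + 0.1) from the mean of the vehicle libraries (color) for the 38 genes (rows, grouped by step) in each library (columns). The values run from -1.03, in the row of Atg7 for PSB-KD107 library 4, to 1.30, in that of Sqstm1 for PSB-KD107 library 1.

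A further 34 genes that act in autophagy, such as other receptors, regulators and tethering proteins, gave the surroundings of the 38. Of these, 26 were higher and 8 lower in direction, and their median log2 fold change was 0.14. In edgeR, 6 passed an unadjusted p of 0.05, each with the higher level under PSB-KD107 (6.47% of all genes), and edgeR called none with adjustment (smallest adjusted p 0.184). Their groups lay apart upward for 8 genes and downward for 1, against 9.2% and 6.59% of all genes. The count of 6 changed when single libraries were left out, as did the share of all genes. It was 10, with 1 lower, without PSB-KD107 library 4 (6.92% and 3.65% of all genes). It was 3, 2 and 2 without vehicle library 2, vehicle library 4 and PSB-KD107 library 1 (3.31%, 3.32% and 4.92% of all genes higher).

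Tmem41b, a scramblase of the endoplasmic reticulum that works with Vmp1, measured 40.4, 43.2 and 43.1 CPM with vehicle and 65.8, 67.5 and 58.6 CPM with PSB-KD107. Its groups were clearly apart, with a log2 fold change of 0.60 ± 0.10 (SE, unadjusted p = 7.8e-04, adjusted p = 0.184, edgeR), and DESeq2 called the rise at an adjusted p of 5.1e-04. Tmem41b was the only one of the 34 that DESeq2 called, where 2.25% of all genes with an adjusted p rose. Its partner Vmp1 measured 89.9, 100 and 105 CPM with vehicle and 102, 110 and 116 CPM with PSB-KD107, with overlapping groups (log2 fold change 0.15 ± 0.10 SE, edgeR adjusted p = 0.694). Retreg1, another ER-phagy receptor, measured 53.4, 104 and 95.01 CPM with vehicle and 125, 179 and 144 CPM with PSB-KD107. Vehicle library 1 was low and the groups did not overlap (log2 fold change 0.83 ± 0.27 SE, unadjusted p = 0.023, edgeR adjusted p = 0.435). The other 4 at an unadjusted p under 0.05 encode tethering proteins and adaptors, with log2 fold changes of 0.35 (Plekhm1), 0.36 (Vps18), 0.31 (Epg5) and 0.27 (Tollip).

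The mitophagy receptor Bnip3 had the largest fold change of the 34, with 1 library far above the rest. It measured 181, 87.8 and 76.3 CPM with vehicle and 213, 110 and 724 CPM with PSB-KD107. PSB-KD107 library 4 was that library, and library 1 was the highest of the vehicle group, so that the groups overlapped (log2 fold change 1.599 ± 0.74 SE, edgeR adjusted p = 0.587). Its relative Bnip3l was also highest in PSB-KD107 library 4, at 89.7, 39.9 and 32.9 CPM and at 92.6, 34.8 and 155 CPM.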

How the data were processed

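PolyA RNA of mdx myoblasts was sequenced in paired-end mode. Per the study's methods the authors aligned reads with STAR to the mouse genome (mm10), and they deposited raw counts per gene, with no normalization seen. The counting program, annotation and strand setting are not given in the sources used here. Groups came from the column names and sample records. The libraries numbered 4 in the table match no sample record by number and were placed by group only. Genes were named and measured with GENCODE M21 (GRCm38), and promoters taken from RefSeq.

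Counts were filtered with filterByExpr, scaled with TMM and tested with edgeR 4.0.16 (quasi-likelihood, R 4.3.3), with Benjamini-Hochberg adjustment over 14165 genes and a threshold of 0.05. Intervals are 95%, and the floor of 3 counts covers counting error only. DESeq2 1.42.0 was run with its defaults on the whole table. Alternatives were RLE factors, no filter, a mean FPKM of at least 1, limma-voom (limma 3.58.1), a robust fit, the replicate number as a block over 6 or 4 libraries, those 4 libraries without pairing, and each library left out. The code was tested on simulated data.

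Values per library are given for genes with an unadjusted p under 0.05, the gene with the smallest p of each step, the LC3 family and the cargo receptors. Other genes given with values, those named from the list of 34, and the motifs were chosen after values were seen. The 38 genes and all lists were chosen with earlier results of these data known.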

Additional observations from a re-analysis of the deposited data

How the results depend on the processing

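Over all genes, edgeR called 0 at an adjusted p under 0.05, 8 with no filter on low counts and 2456 with the replicate number as a block on the 4 libraries numbered 1 and 2, and DESeq2 called 410. Among the 38 genes, that block on 4 libraries gave 6 higher and 2 lower at an adjusted p under 0.05, where it called 2456 of the 14400 genes tested. DESeq2 without a block called 3 higher (2.25% of all genes). At an unadjusted p under 0.05 the block on 4 libraries gave 10 higher and 3 lower (15.5% and 15.1% of all genes). The same 4 libraries without pairing gave 5 and 0 (4.25% and 2.17%). With a block over 6 libraries edgeR called no gene with adjustment. DESeq2 with that block called 3 of the 38 higher, Sqstm1, Uvrag and Gabarap, where 3.27% of all genes rose and 1.62% fell. Whether the numbers pair the libraries is not known, since the labels tie them to no mouse. Same-numbered libraries correlated in their deviations from the group means at 0.63, 0.52 and -0.13 for numbers 1, 2 and 4. Vehicle 4 correlated best with PSB-KD107 2 (0.64).

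Leaving out each library gave 4 to 6 of the 38 genes higher and 0 to 2 lower at an unadjusted p under 0.05 in edgeR. The lower count was 2 without vehicle library 1 and 0 without vehicle library 2. Among the other 34 autophagy genes, 2 to 10 were higher and 0 to 1 lower. Of all genes, 3.31% to 7.35% were then higher and 1.33% to 4.89% lower. DESeq2 called 2 to 5 of the 38, where 0.902% to 3.48% of all genes rose and 0.191% to 1.77% fell. With each library left out, the median log2 fold change of the 38 genes ranged from -0.0011 to 0.0617 and that of the lipid kinase complex from -0.0536 to 0.0217. The other steps ranged from -0.07 to -0.0020 (initiation), 0.10 to 0.17 (membrane supply), -0.03 to 0.08 (conjugation), 0.15 to 0.41 (LC3 family), 0.05 to 0.10 (cargo receptors) and -0.02 to 0.18 (fusion). Ulk1 turned to -0.0592 in the block on 4 libraries and to -0.0589 in the 4 libraries without pairing, and leaving out a library gave -0.0422 (without PSB-KD107 library 4) to 0.296. Of 225 recomputed values of the 15 genes named by rule, 206 kept direction and side of the threshold. A gene that stayed at an unadjusted p of 0.05 or more counted as kept, and 6 of the 15 were under 0.05 in the main fit. Of the other values, 9 lost the threshold, 7 gained it and 3 turned direction. RLE factors, the FPKM filter, limma-voom and the robust fit moved none of the counts of genes called by over 1.5 times. The causes were not tested.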
